A study of Mus musculus with 10 samples.

Results

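The Map4k kinases were examined in supporting cells of the murine utricle, a balance organ of the inner ear. The family was taken as 7 genes chosen by their symbols: Map4k1, Map4k2, Map4k3, Map4k4, Map4k5, Mink1 and Tnik. All 7 were found among the 48709 genes that the tables list. The cells carried a fluorescent reporter of the supporting-cell gene Lfng and were sorted from utricles of mice at postnatal day 21 after culture. The 4 conditions were profiled by RNA sequencing in 10 libraries. DMSO_d5 denotes 5 days in 0.1% DMSO (3 libraries), and TRULI_d5 denotes 5 days in 10 μM TRULI, an inhibitor of the kinases Lats1 and Lats2, with 0.1% DMSO (3 libraries). DMSO_d10 and TRULI_d10 denote the same treatments followed by 5 days of recovery without treatment (2 libraries each). The reporter marks cells by activity of the Lfng promoter, and each library holds the RNA of many sorted cells. In such bulk samples a smaller number of cells of a type and less RNA per cell cannot be told apart.

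The sample label and the name under which the table was deposited disagree for 4 of the 10 libraries. The libraries labelled TRULI_d5 replicates 1 and 2 carry the deposited names DMSO_d10 replicates 1 and 2. The libraries labelled DMSO_d10 replicates 1 and 2 carry the deposited names TRULI_d5 replicates 2 and 3. Every comparison was therefore computed by label and by deposited name. Ccn2, a direct target of Yap and Tead, measured 313.7 and 277.2 FPKM in the libraries labelled DMSO_d10, 443.7 in that labelled TRULI_d5 replicate 3, and from 1.003 to 8.76 in the other 7 libraries. The 3 libraries with high Ccn2 are the ones deposited under the name TRULI_d5. Replicates are taken as separate samples on the strength of the labels, and p-values measure the spread between these samples only.

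Map4k proteins are serine-threonine kinases of the germinal-centre kinase group, named for their ability to start the kinase cascade that leads to Jnk. They also phosphorylate Lats kinases, in parallel with Stk3 and Stk4, the murine Mst2 and Mst1 that Sav1 helps to act on Lats. Active Lats phosphorylates Yap and holds it in the cytoplasm, so that Map4k kinases stand above the step that TRULI blocks. Map4k1, Map4k2, Map4k3 and Map4k5 form one branch of the family, and Map4k4, Mink1 and Tnik form the branch related to the fly kinase Misshapen.

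The members are close enough in their kinase domains to ask whether reads could be assigned to the wrong gene. A stretch of 6 codons that ends in the Ala-Pro-Glu motif at the close of the kinase activation segment is shown for each member, because it is among the most alike parts of the 7 transcripts. It was read from GENCODE M21 transcripts (GRCm38) in the coding frame, and capitals mark the bases at which members differ.
Map4k1, chr7:28987183-28988086, plus strand: taCtggatggcTccagaG
Map4k2, chr19:6343172-6343267, plus strand: taCtggatggcAccagaG
Map4k3, chr17:80644833-80649531, minus strand: taTtggatggcCccagaA
Map4k4, chr1:39983207-39983224, plus strand: taCtggatggcTccagaG
Map4k5, chr12:69845800-69849551, minus strand: taCtggatggcTccagaA
Mink1, chr11:70602751-70602768, plus strand: taCtggatggcTccagaA
Tnik, chr3:28542036-28542053, plus strand: taCtggatggcAccagaA
The 7 members held 5 versions of the stretch, alike at 15 of 18 positions. The pattern fixed most of these positions in advance, so their number does not measure likeness. Map4k1 shared its version with Map4k4, and Map4k5 shared its version with Mink1. The genes lie on 7 chromosomes (GRCm38): Map4k1 (ENSMUSG00000037337) at chr7:28982050-29003279, Map4k2 (ENSMUSG00000024948) at chr19:6341135-6355615, Map4k3 (ENSMUSG00000024242) at chr17:80580512-80728485 and Map4k4 (ENSMUSG00000026074) at chr1:39900913-40026310. Map4k5 (ENSMUSG00000034761) is at chr12:69803750-69893200, Mink1 (ENSMUSG00000020827) at chr11:70562881-70614483 and Tnik (ENSMUSG00000027692) at chr3:28263214-28675858. All of the printed bases are coding exon. In 4 members the coordinates span an intron that the printed bases leave out. Over whole protein-coding transcripts, none of the 21 pairs of members shared an exact run of 31 bases. The longest shared run was 23 bases, between Map4k4 and Tnik, against a stated read length of 150 bases.

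The tables sum to 2463872 to 6255149 expected counts per library. The mitochondrial ribosomal RNA mt-Rnr2 took 13% to 26.4% of counts in 6 libraries and 1.45% to 2.53% in the other 4, which are those labelled TRULI_d5 replicates 1 and 2 and TRULI_d10 replicates 1 and 2. By deposited name these 4 are all of the d10 libraries. The summed level of 10 supporting-cell markers ranged from 3676 to 6096 FPKM in the 6 libraries with high mt-Rnr2 and from 1414 to 2416 FPKM in the other 4. Lfng itself measured 9.60 FPKM in the library labelled TRULI_d5 replicate 2 and 373.6 FPKM at its highest. The 10 hair-cell markers summed to 51.7 to 568.1 FPKM, with overlapping ranges. Myod1, a muscle regulator, measured 9.80 to 51.3 FPKM in the 4 libraries with low mt-Rnr2 and at most 0.305 FPKM in the other 6.

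Map4k3 was the most abundant member in all 10 libraries. The kinase is known for its part in amino-acid signalling to mTORC1. FPKM, the fragments per kilobase scaled to the protein-coding total, was 83.8, 105.2 and 94.1 for Map4k3 in DMSO_d5 and 77.7, 87.2 and 102.4 in the libraries labelled TRULI_d5. It was 98.1 and 102.8 in those labelled DMSO_d10 and 91.4 and 86.9 in TRULI_d10. By label the FPKM of the DMSO_d10 libraries lie above those of TRULI_d10, while the DMSO_d5 and TRULI_d5 ranges overlap, and the highest library is 1.35 times the lowest. That order depends on the scaling: as TMM-scaled CPM, the scale of the tests, Map4k3 was at 332.1 and 389.3 in DMSO_d10 and at 389.3 and 415.7 in TRULI_d10. Map4k3 lay between the 94.7th and 96.1st percentile of protein-coding genes in each library. It supplied 54.5% to 67.1% of the summed FPKM of the family, with a mean share of 59.2% ± 4.37 (SD, n = 10). The sum itself was 157.4 ± 15 FPKM (SD, n = 10).

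**Figure D1:**
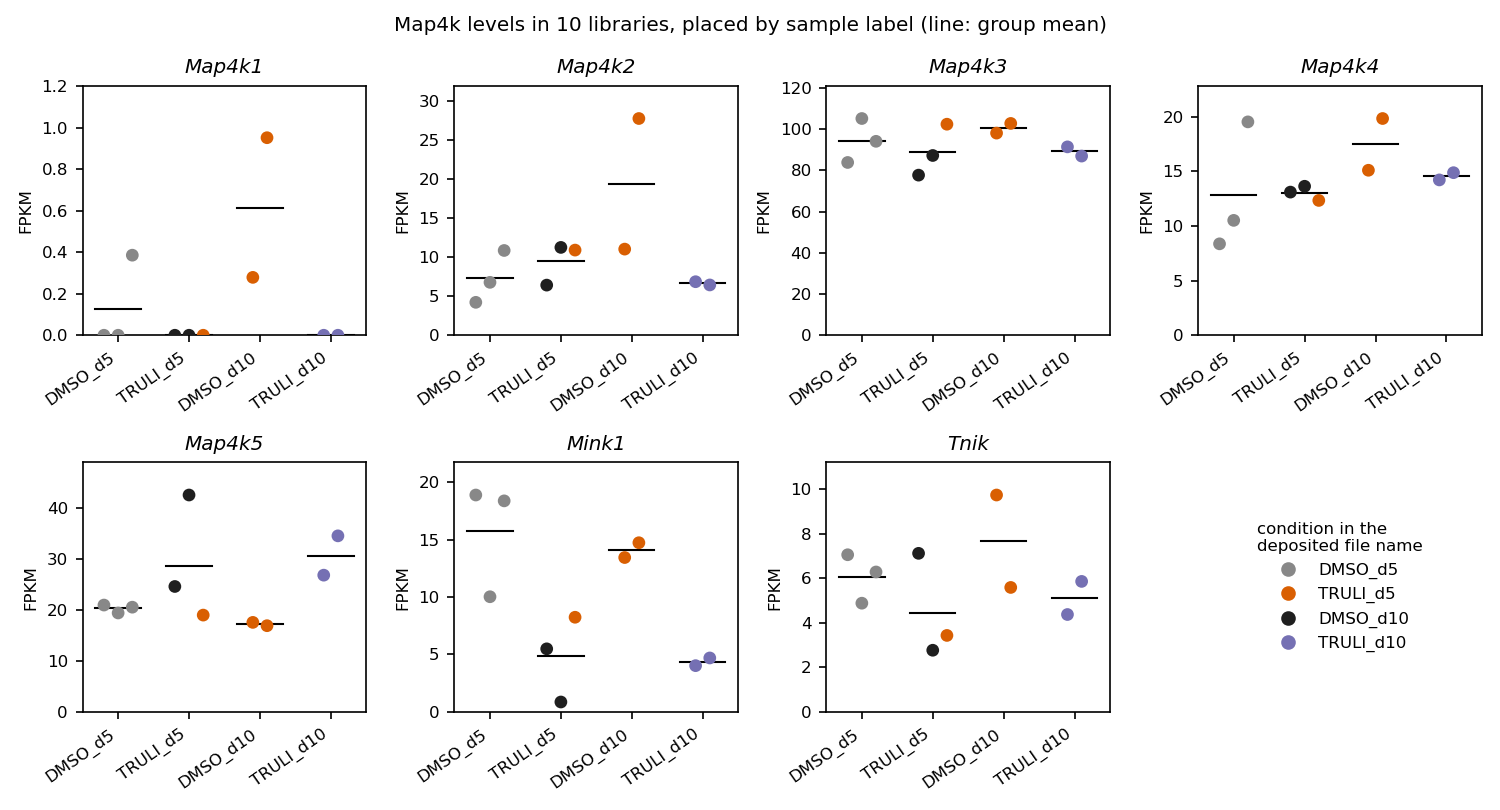
Each panel plots 1 Map4k gene in FPKM on an axis of its own that starts at 0. Libraries are placed by sample label along the x axis, their colour gives the condition in the deposited name, and lines are group means; Map4k3 stays between 77.7 and 105.2 FPKM while Mink1 runs from 0.85 to 18.9.

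Map4k5 was the next most abundant member, at 24.2 ± 8.30 FPKM (SD, n = 10). It was first described as a germinal-centre kinase that responds to tumour necrosis factor. Its highest library reached 42.5 FPKM and its range did not reach that of Map4k3. Map4k4, the founding mammalian member of the Misshapen branch and a regulator of adhesion and cell migration, followed at 14.2 ± 3.56 FPKM (SD, n = 10). It ran from 8.37 FPKM in DMSO_d5 replicate 1 to 19.9 FPKM in the library labelled DMSO_d10 replicate 2, and DMSO_d5 alone spanned 8.37 to 19.5. It lay below Map4k5 in 9 of 10 libraries, with overlapping ranges. Map4k2, which binds Traf2, averaged 10.3 ± 6.66 FPKM, and Mink1, a relative of Map4k4 and Tnik, averaged 9.87 ± 6.28 FPKM (SD, n = 10 each). Map4k2 was at 4.22 to 11.3 FPKM in 9 libraries and at 27.8 FPKM in the library labelled DMSO_d10 replicate 2, the only one above Map4k5 or Map4k4. Map4k2 exceeded Mink1 in 6 of 10 libraries, so that these neighbours are not separated beyond their spread. Tnik, a partner of Traf2 and Nck that also acts with the Wnt effector Tcf7l2, averaged 5.71 ± 2.02 FPKM and was below Mink1 in 6 of 10 libraries. Tnik ran from 2.77 to 9.74 FPKM, with every group by label overlapping at least one other.

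FPKM depends on the effective length that the tables give for a gene in each library. That length was near constant for Map4k3, from 3990 to 4006 bases, but ranged 1.99-fold for Map4k2, 1.83-fold for Map4k4, 2.25-fold for Tnik, 2.30-fold for Mink1 and 4.23-fold for Map4k1. In DMSO_d5 replicate 1 the effective length of Mink1 was 2067 bases, against a median of 4003 bases over the 10 libraries. The edgeR and DESeq2 tests use counts, which do not depend on it, whereas the shares of the family sum do.

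**Figure D2:**
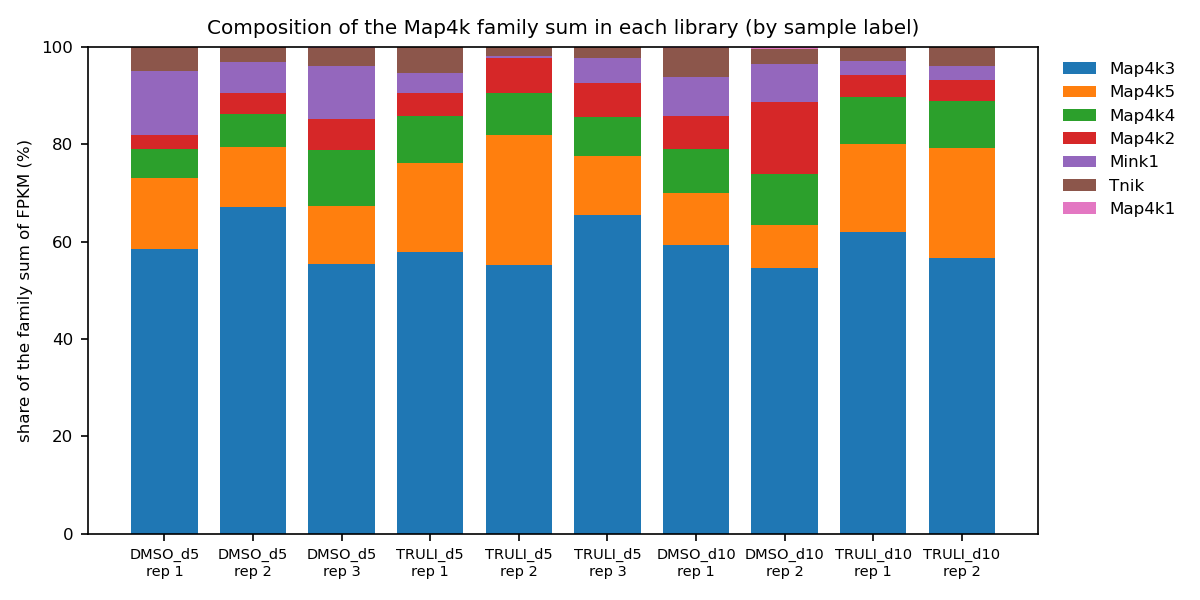
Stacked bars give each gene's share of the summed FPKM of the family, in percent, for each library by sample label. Map4k3 fills 54.5% to 67.1% of every bar. The libraries with low mt-Rnr2 hold the widest shares of Map4k5 and the narrowest of Mink1.

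Map4k1, the member known from blood cells as haematopoietic progenitor kinase, was at or near 0. It had 3 counts in DMSO_d5 replicate 3, 2 counts in each library labelled DMSO_d10 and 0 counts in the other 7. A floor of 3 counts corresponds to 0.257 to 1.43 FPKM over the libraries, and levels below it were not detectable at this depth. Such limits cover counting error only. Markers of leukocytes were low as well: 7 of 10 stayed under 1 FPKM in every library, C1qa and C1qb were at 0 throughout, and the list summed to 2.59 to 35.6 FPKM, with Cd68 (0.964 to 30.4) and Cd3e (0 to 19.8) the most abundant. The sort was for Lfng-GFP, and its part in these low levels was not tested.

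The regions upstream of the RefSeq start sites (GRCm38.p6) are shown for the most abundant member, for the most variable and for the one that was nearly silent. The table used held such windows for 5 members, each of 250 bases before a start, and capitals mark CG dinucleotides. The Map4k3 window is shown for the 182 bases that lie upstream of the first exon of its protein-coding transcripts in GENCODE M21. These bases are inside the annotated span of the gene, since a noncoding transcript of Map4k3 starts at 80728485, and they overlap the pseudogene Gm9959 on the other strand, which had 0 counts.
Map4k3, chr17:80728094-80728275, minus strand: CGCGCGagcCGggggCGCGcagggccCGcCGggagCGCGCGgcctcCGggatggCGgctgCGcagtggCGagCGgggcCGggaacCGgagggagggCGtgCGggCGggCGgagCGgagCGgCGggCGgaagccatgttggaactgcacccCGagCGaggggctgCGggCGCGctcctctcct
Mink1, chr11:70562631-70562880, plus strand: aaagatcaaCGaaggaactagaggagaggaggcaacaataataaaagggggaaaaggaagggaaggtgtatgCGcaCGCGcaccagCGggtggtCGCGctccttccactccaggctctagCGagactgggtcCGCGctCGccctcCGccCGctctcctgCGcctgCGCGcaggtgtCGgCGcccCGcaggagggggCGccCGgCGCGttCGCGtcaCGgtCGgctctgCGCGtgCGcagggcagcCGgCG
Map4k1, chr7:28981800-28982049, plus strand: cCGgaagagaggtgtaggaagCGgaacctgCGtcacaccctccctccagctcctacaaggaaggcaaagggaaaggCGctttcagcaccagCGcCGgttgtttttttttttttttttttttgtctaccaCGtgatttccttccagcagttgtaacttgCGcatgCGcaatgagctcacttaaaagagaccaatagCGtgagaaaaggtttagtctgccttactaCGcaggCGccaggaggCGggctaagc
The full 250-base windows held 45 CG in Map4k3, 32 in Mink1 and 13 in Map4k1, against a median of 6 over 32850 promoter windows. They ranked at the 99.6th, 95.4th and 68.5th percentile. Map4k5 held 26 and Map4k2 held 21. A second Map4k1 start had 3. The letters CATTCC, the core bound by Tead factors, were searched on both strands. They occurred in 0 of the 6 windows of members and in 12.6% of all windows. This is a count of letters in a short window and says nothing of binding.

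The members differed widely in how much they varied between libraries. On log2 CPM (counts scaled to the library total after TMM, prior count 2) the SD of Map4k3 over the 10 libraries was 0.16. That was the 8th lowest of 11861 protein-coding genes tested, where the median gene had 0.71. With DESeq2 size factors in place of TMM, an alternative added after the data were seen, Map4k3 ranked 17th lowest at 0.17. Map4k4 had an SD of 0.31 (rank 606), Map4k2 of 0.59 and Tnik of 0.60. Map4k5 had 0.65, and Mink1 had the largest of the family at 0.99, above 72.1% of genes. These ranks are not adjusted for level, and genes of high count vary less by counting error.

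Among the other kinases that activate Lats, Taok1 had an SD of 0.35 (rank 936). The steadiest related kinase was Stk39, a kinase of ion cotransporters, at 0.22 (rank 101) and 86.4 FPKM on average. Stk39 was the only germinal-centre kinase outside the family, among the 7 listed, with an average above 50 FPKM.

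**Figure D3:**
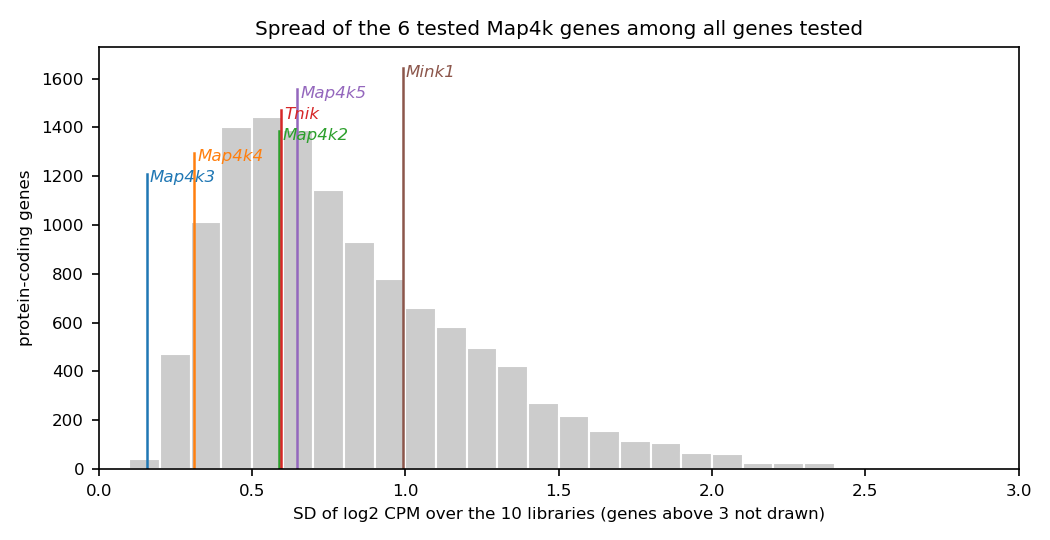
Grey bars count the 11861 protein-coding genes tested by the SD of their log2 CPM over the 10 libraries, in steps of 0.1. Coloured lines mark the 6 Map4k genes that passed the filter, from Map4k3 at 0.16 to Mink1 at 0.99; Map4k1 is not shown.

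Map4k5 and Mink1 differed in opposite senses between the 4 libraries with low mt-Rnr2 and the other 6. Mink1 measured 18.9, 10 and 18.4 FPKM in DMSO_d5, 5.48, 0.85 and 8.24 in the libraries labelled TRULI_d5, 13.4 and 14.7 in those labelled DMSO_d10 and 4.02 and 4.69 in TRULI_d10. Map4k5 measured 20.9, 19.4 and 20.5 FPKM in DMSO_d5, 24.5, 42.5 and 18.9 in those labelled TRULI_d5, 17.5 and 16.9 in those labelled DMSO_d10 and 26.8 and 34.5 in TRULI_d10. The 4 libraries with mt-Rnr2 under 3% held the 4 highest levels of Map4k5 and the 4 lowest of Mink1. Their ratio of Map4k5 to Mink1 was 4.48, 50, 6.66 and 7.35, against 1.11 to 2.30 in the other 6. The lowest Mink1 value rests on 12 counts, in the library labelled TRULI_d5 replicate 2, which also has the lowest Lfng. The library labelled TRULI_d5 replicate 3 is the only one of its label among the 6 with high mt-Rnr2.

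On the CPM scale, Map4k5 was at 102.9 to 216.6 in these 4 libraries and at 57.4 to 76.9 in the other 6. Mink1 was at 5.14 to 26.1 and at 27 to 67.5, so that its groups are parted by less than 1 CPM. Map4k4 was also parted, at 60.4 to 77.6 against 38.7 to 59.1 CPM. In FPKM its levels in these 4 libraries, 13.1 to 14.9, lay within the 8.37 to 19.9 of the other 6. As CPM, Map4k2, Map4k3 and Tnik overlapped. Among all 11861 genes tested, 24.4% did not overlap between these 4 and 6 libraries, against 3 of 6 tested members. The share of mt-Rnr2 and the summed supporting-cell markers, given above, divide the libraries in the same way, and their part in the levels of Map4k5 and Mink1 was not tested.

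**Figure D4:**
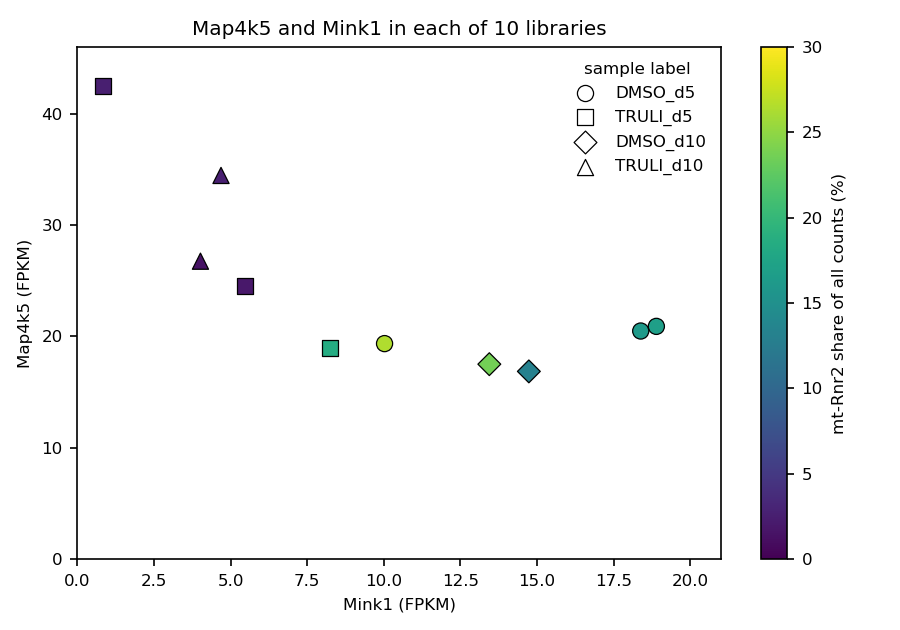
Each point is 1 of the 10 libraries, with Mink1 on the x axis and Map4k5 on the y axis, both in FPKM; shape gives the sample label and colour the mt-Rnr2 share of counts. The 4 dark points, with mt-Rnr2 at 1.45% to 2.53%, lie at the upper left.

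The first comparison asked whether blocking Lats for 5 days moved the transcripts of the kinases above it. Grouped by label, none of the 6 tested Map4k genes was called (edgeR quasi-likelihood test, with a Benjamini-Hochberg adjusted p below 0.05 and at least a doubling or halving required). Map4k1 had too few counts to be tested. Of all 10646 genes tested, 0.00939% were called. At an unadjusted p under 0.05 edgeR had 0 of the 6 members and 1477 of the 10646 genes. DESeq2 called 0 members and had 1, Mink1, at that p. DESeq2 called 2.42% of genes and had 16.9% at that p. Mink1 had the largest difference, a log2 fold change of -1.26 (SE 0.59, n = 3 and 3, edgeR adjusted p = 0.372). It was lower in all 3 libraries labelled TRULI_d5 than in any DMSO_d5 library, and was the only member whose groups did not overlap, against 18.3% of all genes tested. Without TRULI_d5 replicate 2, where Mink1 has 12 counts, its log2 fold change was -0.82. The log2 fold change was 0.79 (SE 0.45) for Map4k5 and 0.19 without that same library. Without TRULI_d5 replicate 3, the library of this label with high mt-Rnr2, Map4k5 was at 1.13 (edgeR adjusted p = 0.0512) and Mink1 at -1.54 (edgeR adjusted p = 0.108), and these 2 of 6 members had an unadjusted p under 0.05, where 37.2% of 10880 genes did. The log2 fold change was 0.53 (SE 0.43) for Map4k2 and 0.35 (SE 0.35) for Map4k4. It was 0.12 (SE 0.31) for Map4k3 and -0.14 (SE 0.54) for Tnik. With 1 library left out, Map4k2 ran from 0.35 without DMSO_d5 replicate 1 to 0.76 without DMSO_d5 replicate 3. Map4k4 ran from 0.17 without TRULI_d5 replicate 2 to 0.55 without TRULI_d5 replicate 3. Map4k3 ran from 0.01 without TRULI_d5 replicate 2 to 0.23 without DMSO_d5 replicate 2.

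Grouped by deposited name, again 0 of 6 members were called at 5 days, where 3.28% of the 10952 genes tested were. At an unadjusted p under 0.05 edgeR had 1 member of 6, where 16.7% of genes reached that p, and DESeq2 called 0 members and 5.18% of genes. That member was Map4k2, with a log2 fold change of 1.02 (SE 0.42, edgeR adjusted p = 0.239). Its level was 4.22, 6.79 and 10.9 FPKM in DMSO_d5 and 10.9, 11 and 27.8 FPKM in the libraries named TRULI_d5, ranges that are parted by less than 0.1 FPKM. On the CPM scale of the test they overlap, the lowest TRULI_d5 library being at 17.6 and the highest DMSO_d5 library at 17.9. Leaving out the library named TRULI_d5 replicate 3, which holds the 27.8, brought the log2 fold change to 0.47. The direction of Map4k5 was the opposite of that by label, at -0.30 (SE 0.20, edgeR adjusted p = 0.511). Map4k5 was the only member whose groups did not overlap, against 21.4% of all genes. Mink1 was at -0.23 (SE 0.32), Tnik at -0.58 (SE 0.31), Map4k4 at 0.11 (SE 0.24) and Map4k3 at 0.03 (SE 0.20). Replicate numbers in the deposited names paired these libraries, and with that block again 0 members were called, with 696 genes called in place of 359. In the blocked fit Map4k2 was at 0.97 (SE 0.30, edgeR adjusted p = 0.0579), and it was higher with TRULI in 3 of 3 pairs, at 17.6 against 9.79, 20.9 against 13.5 and 46.2 against 17.9 CPM.

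**Figure D5:**
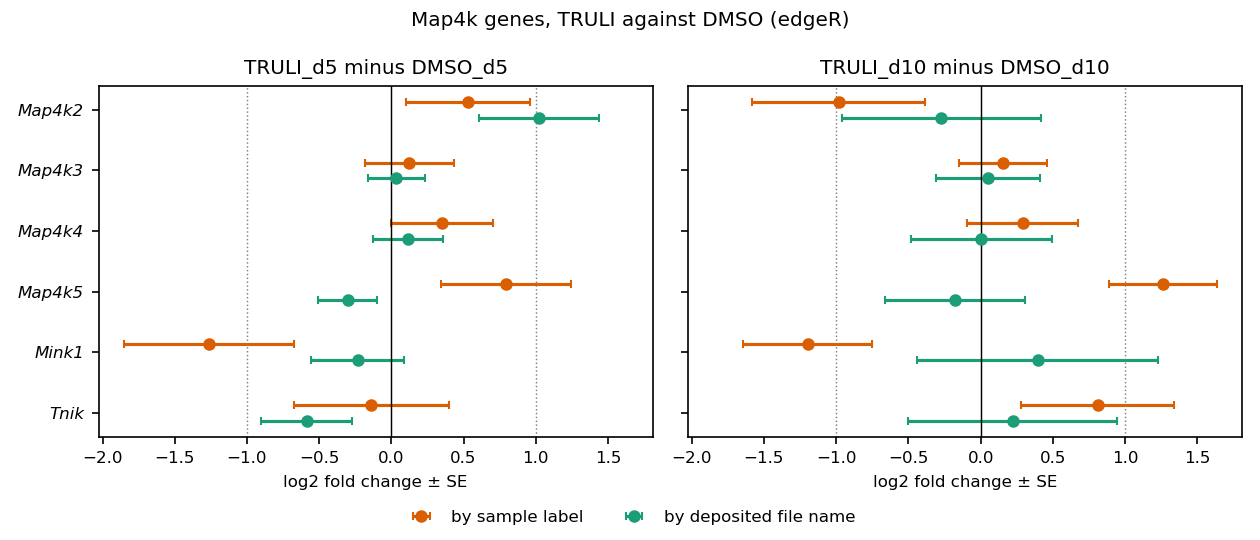
Points give the log2 fold change of TRULI against DMSO by edgeR with standard errors as bars, at 5 days on the left and after withdrawal on the right, grouped by label (orange) or deposited name (green). Dotted lines mark log2 fold changes of -1 and 1; the orange and green points of Map4k5 lie on opposite sides of 0.

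After withdrawal of TRULI, the comparison by label called 0 of 6 members, where 2.29% of 11562 genes were called. At an unadjusted p under 0.05 edgeR had 2 members of 6, Map4k5 and Mink1, where 25.1% of genes reached that p. Map4k5 had a log2 fold change of 1.26 (SE 0.37, n = 2 and 2, edgeR adjusted p = 0.101), and DESeq2 called it with an adjusted p of 0.0343 along with 12.4% of genes. The replicate block called it too (edgeR adjusted p = 0.0354), along with 15.9% of genes. Mink1 was at -1.20 (SE 0.45, edgeR adjusted p = 0.153). In this grouping the DMSO_d10 libraries are the ones with high mt-Rnr2 and high Ccn2, and the TRULI_d10 libraries have neither. The remaining log2 fold changes were -0.98 (SE 0.60) for Map4k2, 0.81 (SE 0.53) for Tnik, 0.29 (SE 0.38) for Map4k4 and 0.15 (SE 0.30) for Map4k3. With 1 library left out, Tnik ran from 0.45 without TRULI_d10 replicate 2 to 1.12 without TRULI_d10 replicate 1, and Map4k4 ran from 0.11 to 0.47 without the same libraries. Map4k3 ran from 0.04 without DMSO_d10 replicate 1 to 0.28 without DMSO_d10 replicate 2. Groups did not overlap for 4 of 6 members, against 58.1% of all genes. Without TRULI_d10 replicate 1, edgeR called Map4k5 at 1.51 (adjusted p = 0.00301) and Map4k2 at -1.45 (adjusted p = 0.0458), in a fit that called 25.4% of 11940 genes. Without DMSO_d10 replicate 2, the library with 27.8 FPKM, Map4k2 was at -0.29 (edgeR adjusted p = 0.933). Each of these fits has a group of 1 library, which is assumed to vary like the others.

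Grouped by deposited name, both d10 groups hold libraries with low mt-Rnr2, and no member stood out. None of 6 members was called, and 0% of the 10845 genes tested were. At an unadjusted p under 0.05 edgeR had 0 members and 516 genes, while DESeq2 called 0 members and 48 genes. Map4k5 was at -0.18 (SE 0.48), Mink1 at 0.39 (SE 0.83), Map4k2 at -0.27 (SE 0.69) and Tnik at 0.22 (SE 0.72). Map4k3 was at 0.05 (SE 0.36) and Map4k4 within 0.01 of no change (SE 0.49). The edgeR adjusted p was 1 for each. Groups overlapped for all 6 members, where 28.8% of all genes did not overlap. Mink1 was 5.48 and 0.85 FPKM in the libraries named DMSO_d10 and 4.02 and 4.69 in TRULI_d10, a wide interval around no change.

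All 10 libraries were then fitted together for any difference among the 4 conditions. By label 0 members passed (edgeR F test, adjusted p under 0.05), where 0.0169% of 11861 genes did. At an unadjusted p under 0.05 the F test by label had 0 members and 2347 of the 11861 genes. The lowest adjusted p was that of Map4k5, 0.261, and it passed without the library labelled TRULI_d5 replicate 3 (edgeR adjusted p = 0.0319), where 21.4% of 11737 genes passed. By deposited name Map4k5 passed, with an adjusted p of 0.0131 in a fit where 28.5% of genes did. It passed in every alternative run, at 0.00173 to 0.0411. Mink1 followed at 0.118, and at 0.0110 without the library named DMSO_d10 replicate 1, where 33.4% of genes passed, and Map4k3 had 0.864. The differences between the effects of TRULI at the 2 times, tested as an interaction in edgeR, called 0 members and 0% of genes in either grouping. At an unadjusted p under 0.05 that test had 0 members in both, with 810 genes by label and 1120 by name.

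Contrasts between the times were added after the data were seen. By deposited name Map4k5 was higher at d10 than at d5, with a log2 difference of 1.11 (SE 0.33, edgeR adjusted p = 0.0318) in DMSO and 1.22 (SE 0.32, edgeR adjusted p = 0.0223) in TRULI. Of all genes, 18.8% were called in the DMSO contrast and 18.2% in the TRULI contrast, 2233 and 2159 genes that include Map4k5. Without any 1 of the 3 DMSO_d5 libraries the DMSO difference stayed at 1.07 to 1.14 but was not called (edgeR adjusted p = 0.0761 to 0.0973), and without the library named DMSO_d10 replicate 2 it was 0.45 (edgeR adjusted p = 0.431). Without any 1 library named TRULI_d5 the TRULI difference stayed at 1.201 to 1.27 but was not called (edgeR adjusted p = 0.0520 to 0.0754), and without TRULI_d10 replicate 2 it was 0.93 (edgeR adjusted p = 0.129). Mink1 differed by -1.55 (SE 0.58, edgeR adjusted p = 0.0761) in DMSO and by -0.97 (SE 0.57, edgeR adjusted p = 0.235) in TRULI. The DMSO value of Mink1 was -3.20 without the library named DMSO_d10 replicate 1 (edgeR adjusted p = 0.00709, in a contrast that called 21.9% of genes) and -0.89 without DMSO_d10 replicate 2. Each of these fits has a single DMSO_d10 library, whose spread is taken from the other groups, and in the first of them it is the library with 12 Mink1 counts. With no filter on low counts the DMSO difference of Mink1 was called at -1.57 (edgeR adjusted p = 0.0258), in a contrast that called 16.8% of 15784 genes. These contrasts compare libraries of low with libraries of high mt-Rnr2, and time cannot be told apart from that difference. By label, 0 members were called in the same contrasts, where 0.0337% of genes were called in DMSO and 0% in TRULI.

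The composition of the family was compared as a share within each library, which library scaling does not affect but effective length does. By label at 5 days the share of Mink1 was 10.1% ± 3.44 in DMSO_d5 and 3.30% ± 2.46 in TRULI_d5 (SD, n = 3 each). An exact two-sided permutation test gave p = 0.1, the smallest that 3 against 3 libraries allow, and 0.6 after adjustment over 6 members. Map4k5 had mean shares of 13% and 19.1% in the same groups (exact permutation p = 0.3), with 18.3%, 26.8% and 12.1% in the 3 libraries labelled TRULI_d5. Its difference of 6.08 percentage points was 2.20 without TRULI_d5 replicate 2 and 9.56 without TRULI_d5 replicate 3. By deposited name the mean shares in DMSO_d5 and TRULI_d5 were 13% and 10.6% for Map4k5 (exact permutation p = 0.2), opposite in direction to those by label. For Mink1 they were 10.1% and 7.07% (exact permutation p = 0.3). The permutation tests by name did not use the pairs of replicate numbers. Among them Map4k2 had p = 0.1 in the exact permutation test (adjusted 0.6), with mean shares of 4.56% and 9.47%. The latter mean holds 1 library at 14.7%, labelled DMSO_d10 replicate 2, while the other 2 are at 6.99% and 6.69%. The Mink1 share in DMSO_d5 includes replicate 1, with its short effective length, where Mink1 was at 36.4 CPM, the lowest of the 3 DMSO_d5 libraries on that scale. The share of Map4k3 was 60.3% in DMSO_d5 and 59.5% in TRULI_d5 by label or 59.8% by name. With 2 against 2 libraries after withdrawal only values are given: by name Map4k3 held 56.5% in DMSO_d10 and 59.3% in TRULI_d10, Map4k5 held 22.6% and 20.3%, and Mink1 held 2.31% and 2.89%. By label the DMSO_d10 and TRULI_d10 shares were 56.9% and 59.3% for Map4k3, 9.77% and 20.3% for Map4k5, 7.97% and 2.89% for Mink1 and 10.7% and 4.43% for Map4k2. The Map4k2 difference of -6.28 percentage points by label was -2.26 without DMSO_d10 replicate 2 and -10.3 without DMSO_d10 replicate 1.

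The family was set beside the other kinases that activate Lats. Stk3 averaged 16.4 FPKM and Taok3, a kinase that also acts on Stk3 and Stk4, averaged 26.9 FPKM. The 5 kinases Stk3, Stk4, Taok1, Taok2 and Taok3 together summed to 50.6 to 129.7 FPKM per library, against 134.4 to 188.6 FPKM for the Map4k family. The Map4k sum was the larger in all 10 libraries. None of these 5 kinases was called in either comparison under either grouping, where at most 3.28% of all genes were. Taok3 came nearest, at a log2 fold change of 1.52 after withdrawal by label (edgeR adjusted p = 0.0788) and -0.15 by name.

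Of 23 genes of the Hippo core and its output, 0 were called at 5 days by label, where 0.00939% of all genes were. By deposited name 3 rose and 2 fell, where 3.28% of all genes were called. The median log2 fold change of the list by name was 0.08, beside 0.01 over all genes tested. The largest rises were in Ajuba and Amotl2, which feed back on Lats and Yap and belong to the known Yap targets. Ajuba had a log2 fold change of 3.22 (SE 0.31, edgeR adjusted p = 9.15e-04), and Amotl2 had 1.82 (SE 0.27, edgeR adjusted p = 0.00644). Lats2, the other target that rose, had 1.46 (SE 0.33, edgeR adjusted p = 0.0344). The decreases were in Limd1 at -1.25 (edgeR adjusted p = 0.0169) and Amot at -1.02 (edgeR adjusted p = 0.0374). After withdrawal by label 1 of the 23 was called, where 2.29% of all genes were: Ajuba fell by 3.80 on the log2 scale (edgeR adjusted p = 0.0287), between the same libraries with high and low Ccn2 as above. By name 0 of the 23 were called after withdrawal. Among Yap targets outside the list, Ccn2 and Myc were called by name at 5 days, at log2 fold changes of 5.56 and 3.13 (edgeR adjusted p = 1.76e-05 and 0.00575). After withdrawal by label Ccn2 was called at -5.67 (edgeR adjusted p = 0.0287), and the division gene Birc5 fell from a mean of 10.6 CPM to 0 counts in both TRULI_d10 libraries. Of supporting-cell markers, Hes1 was called at -1.11 by name at 5 days, and Slc1a3 at -2.52, Lfng at -2.34 and Otoa at -1.66 after withdrawal by label, where Myod1 was called upward from 0 counts. Of the 10 leukocyte markers 1 had enough counts to be tested by name at 5 days, Cd68, and it was called at 2.23. The share of all genes called was 3.28% by name at 5 days and 2.29% by label after withdrawal. Amotl1 (72.6 FPKM), a junctional protein that binds Yap, and Yap1 itself (48.7 FPKM) were the most abundant of the list.

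The STRIPAK complex contains the phosphatase that removes activating phosphates from these kinases and includes Map4k4 and Mink1 among its partners. None of its 12 tested genes of 13 was called in either comparison or grouping, where at most 3.28% of all genes were. Its most abundant transcripts were Ppp2r1a, the phosphatase scaffold (168.1 FPKM), and Slmap (109.3 FPKM). Ppp2r1a was above Map4k3 in all 10 libraries. Slmap was above Map4k3 in the 4 libraries with low mt-Rnr2, at 146.1 to 214.3 FPKM, and below it in the other 6, at 53.5 to 75.1 FPKM. Of the 15 genes of the Jnk cascade, 1 was called by deposited name at 5 days, where 3.28% of all genes were. This was Map3k9, a kinase that activates the Jnk pathway, with a log2 fold change of 1.37 (SE 0.33, edgeR adjusted p = 0.0484) at a mean level of 1.54 FPKM. By label and after withdrawal 0 of the 15 were called. Jun (108.3 FPKM) and Map3k1 (44.8 FPKM) were the most abundant of the cascade.

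Adaptors and small GTPases known to bind Map4k proteins were likewise not called. This held for all 10 in each comparison and grouping, with Crk (45.9 FPKM) and Grb2 (34.7 FPKM) the most abundant. The same held for the 7 other germinal-centre kinases, of which Stk25 (33 FPKM) came after Stk39. Of all genes tested, at most 3.28% were called in any of these comparisons and groupings. In each of these lists the median log2 fold change lay between -0.25 and 0.49, beside medians of -0.00 to 0.04 over all genes tested.

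The genes with profiles most like those of the 2 most variable members were sought among 11861 genes by the root mean square difference of centred log2 CPM over the 10 libraries. For Mink1 they were Zfp114 (0.23), Eloa (0.27) and Etv4 (0.30), where the median gene differed by 1.11. For Map4k5 they were D17Wsu92e (0.10), Timm29 (0.15) and Mindy2 (0.15), against a median of 0.91. The same 3 genes came first for each member with DESeq2 size factors. The points of these profiles share libraries and depth, and the likeness is a description.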

How the data were processed

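RNA sequencing of Lfng-GFP+ supporting cells gave 10 libraries. Per the labels, poly(A) RNA and a TruSeq kit were used, and the methods of the study name a QIAseq FX Single Cell RNA kit. The authors mapped reads to GRCm38 (mm10) with STAR, and deposited expected counts and effective lengths per gene without normalization; the counting program and whether strand was used are not given in the sources used here. Authors' contrasts were not used.

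The members and gene lists were chosen with earlier results of these data known. IDs were matched to GENCODE M21 without version suffix (48349 of 48709). Expected counts were rounded and protein-coding genes tested with edgeR 4.0.16 (R 4.3.3; filterByExpr, TMM, quasi-likelihood); genes counted as called at an adjusted p below 0.05 with an absolute log2 fold change above 1. DESeq2 1.42.0 was an alternative. FPKM was computed from expected count, effective length and protein-coding total; group sizes were 3, 3, 2 and 2. Named genes were the 7 members, called genes of the lists (the 2 largest rises and falls where over 4 were called; Lats2 was added after its value was seen), the 2 most abundant genes of each list and the 3 nearest profiles of the 2 most variable members. Marker lists for mesenchyme, glia and neurons, melanocytes, and muscle and endothelium summed to 4.31 to 27.7, 13.5 to 63.5, 1.98 to 10.6 and 0 to 51.9 FPKM.

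Each library has a floor of 3 counts, 0.501 to 1.50 CPM, for counting error only. No libraries held the same counts (smallest chi-square per degree of freedom 16.7). The tests were first tried on simulated counts. Deposited-name replicates at 5 days deviated together (correlations 0.36, 0.18 and 0.30), and labelled ones did not (-0.13, 0.05 and -0.17). The main fits did not use these numbers as pairs, and the replicate block was an alternative. Atl1 overlaps Map4k5 on the other strand (1 to 30 counts).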

Additional observations from a re-analysis of the deposited data

How the results depend on the processing

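The 5-day comparison called 0 Map4k genes under every alternative run, by label and by deposited name, and so did the withdrawal comparison by name and the interaction. After withdrawal by label, DESeq2 called 1 member, the replicate block called 1 (Map4k5, log2 fold change 1.24, edgeR adjusted p = 0.0354), and leaving out 1 library gave 0 to 2. The difference among the 4 groups called 1 member under the deposited name, and 0 to 1 by label and 1 to 2 by name with 1 library left out; without the filter on low counts it called 2 by name, where 4436 of 15784 genes passed. The causes were not tested. Map4k3 was first in all libraries under TPM or TMM-scaled FPKM, and its mean share ran from 58.3% to 59.7% with 1 library left out. Of the share differences of single members, 5 moved by more than the spread between replicates, each under the deposited name.

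Under the deposited name the log2 fold change of Map4k5 reversed to -0.30 at 5 days and -0.18 after withdrawal, and that of Mink1 to 0.39 after withdrawal. By name after withdrawal Map4k4 reversed to -0.0034 with DESeq2, -0.0040 with its size factors and -0.0046 with all 10 libraries in one fit. With 1 library left out, signs also changed within these ranges: Tnik by label at 5 days, -0.88 to 0.21; by name at 5 days, Map4k3 -0.042 to 0.12, Map4k4 -0.014 to 0.24 and Mink1 -0.42 to 0.12; by name after withdrawal, Map4k2 -0.77 to 0.078, Map4k3 -0.14 to 0.26, Map4k4 -0.18 to 0.16, Map4k5 -0.63 to 0.46, Mink1 -0.32 to 1.99 and Tnik -0.42 to 1.47.

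The count of genes called, on which the background rests, moved far more. At 5 days by label it was 1, and 258 with DESeq2, 0 with the replicate block, 2 with all 10 libraries in one fit, 359 by deposited name and 0 to 2121 with 1 library left out, the highest without TRULI_d5 replicate 3. After withdrawal by label it was 265, and 1435 with DESeq2, 1294 with no filter, 1837 with the replicate block, 0 with all 10 libraries, 0 by name and 28 to 3028 with 1 left out. By name it was 359 at 5 days, and 567, 586, 696 and 123 under the same 4 alternatives and 64 to 396 with 1 left out; after withdrawal it was 0, and 48 with DESeq2, 198 with no filter and 0 to 26 with 1 left out.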
